A study of Homo sapiens with 12 samples.

Results

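MCF10A cells are a non-tumorigenic human breast epithelial line, and the cells used here carried a stably transfected full-length HER2 receptor fused to FKBP and an HA tag. AP1510, a synthetic ligand with a pair of FKBP-binding ends, was added to bring the HER2 chimeras together as homodimers, and the comparison described here is of AP1510-treated with untreated cells. Arrays were chosen by their treatment label, which gave 3 AP1510 arrays and 3 untreated arrays, 6 of the 12 in the series. The other arrays are of the same cells given TGF-alpha, a ligand of EGFR, or heregulin, a ligand of HER3 and HER4, and they entered the fit and are named where a gene is set beside them. Per the labels' protocols, 100 mm dishes were seeded in triplicate, and 24 hours before ligand the cells were moved from medium with 5% horse serum and 20 ng/ml EGF to medium without them. Cholera toxin at 100 ng/ml, hydrocortisone at 500 ng/ml and insulin at 10 microgram/ml stayed in the medium of all groups, untreated cells included. RNA was taken 48 hours after ligand. The sources used here state no dose or vehicle for AP1510 and no time of harvest for untreated cells, so effects of vehicle or of time in culture cannot be told apart from those of AP1510. AP1510 on cells without the chimera was not analysed here, and nothing in the labels says whether the transfected cells are 1 clone.

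HER2 is the ErbB receptor without a ligand of its own. It signals when it pairs with another ErbB receptor or, where it is abundant, with itself, and the pair activates the RAS to ERK and the PI3K to AKT pathways. ERK drives early transcription factor genes and a set of feedback inhibitors, and AKT keeps FOXO factors out of the nucleus. Mammary epithelial cells cultured without EGF slow their cell cycle, which ErbB signalling restarts.

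Values are the deposited log2 RMA intensities, a relative scale on which 1 unit is a doubling, and each gene is measured by 1 probe set. Transcripts that mark the line were present, with a mean of 11.5 ± 0.16 (SD, n = 3) for KRT5, 10.9 ± 0.01 for CDH1 and 9.23 ± 0.15 for EPCAM on untreated arrays, against array medians of 5.33 to 5.44 over all probe sets. Levels were low for PTPRC at 3.01 ± 0.08, LUM at 2.74 ± 0.03, ESR1 at 4.39 ± 0.16 and PGR at 3.51 ± 0.17, which mark leukocytes, fibroblasts and hormone-responsive luminal cells. Other members of these marker lists and of the endothelial list lay above the array medians on untreated arrays, among them CD68 at 7.91 ± 0.11, PECAM1 at 8.54 ± 0.03, COL1A1 at 6.64 ± 0.11, FOXA1 at 7.02 ± 0.20 and GATA3 at 8.31 ± 0.14. Of 4 leukocyte, 4 endothelial, 5 fibroblast and 4 hormone receptor luminal markers measured, 0 passed the test between AP1510 and untreated cells. Of all genes tested 1.47% passed, so a count of 0 among so few markers is near the background. Summed over the list, the log2 levels of leukocyte markers were 19.72 to 19.94 on untreated and 19.67 to 20.13 on AP1510 arrays, those of endothelial markers 23.56 to 23.73 and 23.16 to 23.75, and those of fibroblast markers 24.33 to 24.99 and 24.42 to 24.79. ERBB2, the gene of HER2, stood at 10.94, 10.97 and 10.93 on untreated replicates 1, 2 and 3 and at 10.93, 10.79 and 11.01 on AP1510 replicates 1, 2 and 3, so the groups overlapped. Its probe set may read the chimera's RNA together with that of the cells' own gene.

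By limma's moderated test with Benjamini-Hochberg adjustment over 18417 genes, 271 genes differed between AP1510 and untreated cells at an adjusted p under 0.05, which is 1.47% of those tested. Of these, 142 were higher (0.771%) and 129 lower (0.7%), and on all 271 the 3 AP1510 arrays lay to one side of the 3 untreated arrays. Without regard to the test, 1356 genes (7.36%) had all 3 AP1510 arrays above all 3 untreated arrays and 1828 (9.93%) had them below. With each of the 12 arrays of the series left out in turn, 74 genes (0.402%), 40 higher and 34 lower, passed in all 12 refits. A change of at least 2-fold was measured for 7 of the higher and 12 of the lower genes, and 16 of these are among the 74. The arrays read bulk RNA, in which fewer cells of a type and less RNA per cell cannot be told apart.

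The AP1510 dishes lay at different distances from untreated cells. On replicate 1, 496 genes lay at least 1.5-fold from the untreated mean, against 209 on replicate 2 and 145 on replicate 3. Its median correlation with the untreated arrays over all probe sets was 0.9896, against 0.9911 and 0.9925. Replicate 1 was the dish farthest from the untreated mean for 109 of the 142 higher and 94 of the 129 lower genes, a description only, since these genes were called on the same dishes. Without replicate 1, 49 genes passed as higher and 46 as lower. Replicate 1 had no part in choosing them, although the untreated arrays are shared, and it lay above all 3 untreated arrays for 47 of the 49 and below them for 43 of the 46, beside 26.9% and 30.6% of all genes tested. The number of genes that passed was also 117, 149 and 134 without untreated replicates 1, 2 and 3. The labels give no batch, date or order of the dishes, and what sets replicate 1 apart was not tested.

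**Figure D1:**
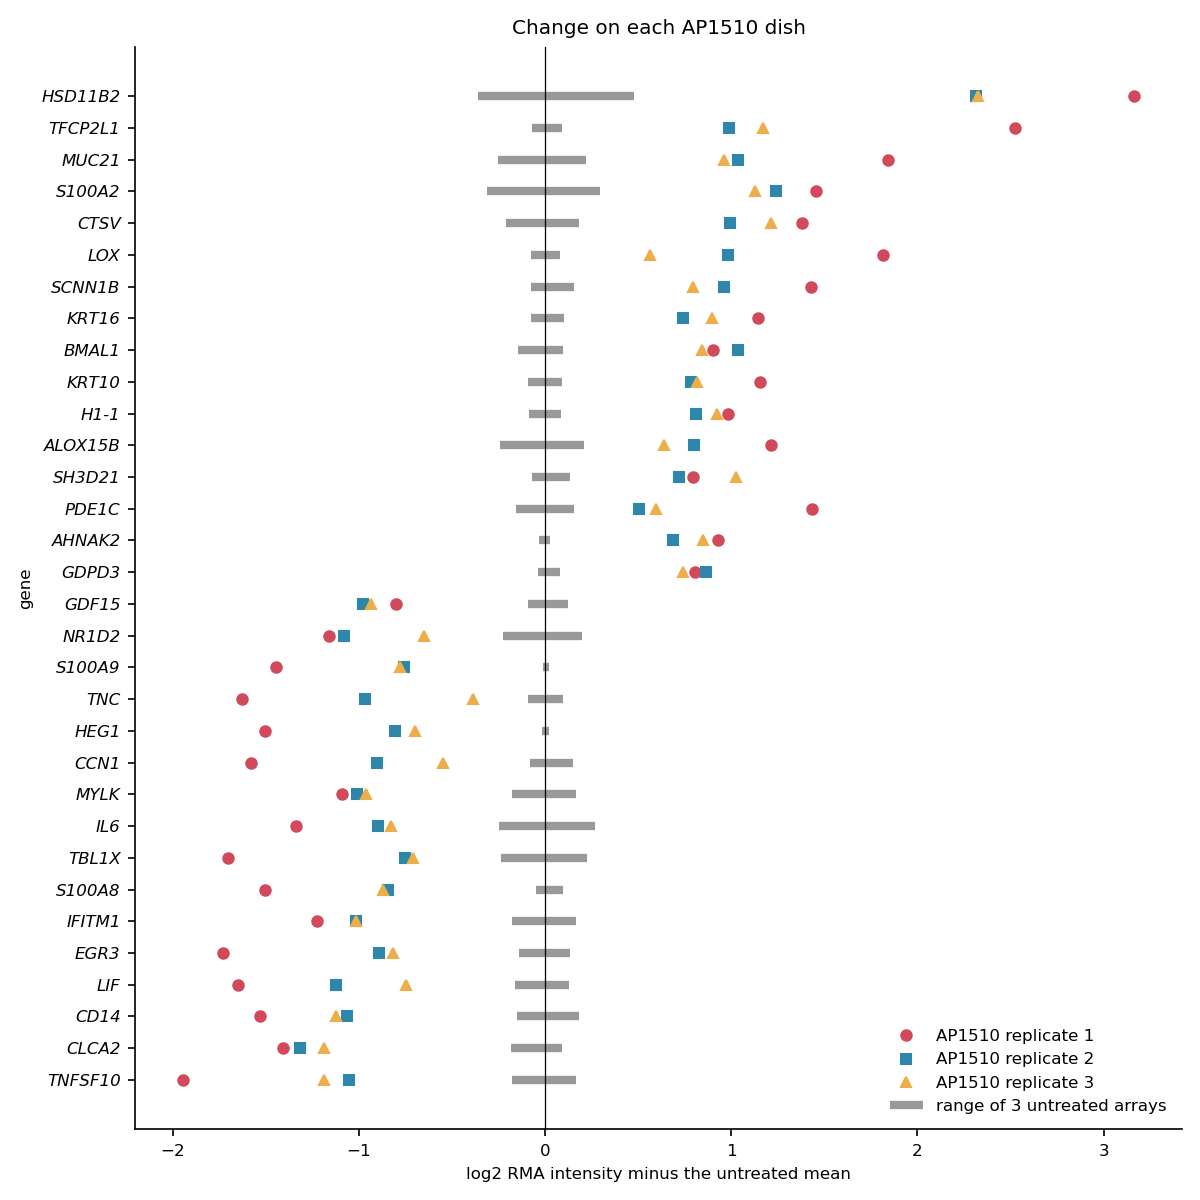
Change on each AP1510 dish for the 32 genes with the largest changes or the widest gaps between groups. The horizontal axis is the log2 RMA intensity minus the mean of the 3 untreated arrays, each row is a gene, coloured symbols are AP1510 replicates 1 to 3 and grey bars span the 3 untreated arrays; every symbol lies outside its grey bar, and HSD11B2 lies farthest to the right.

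HSD11B2 gave the largest change. Its product, 11-beta-hydroxysteroid dehydrogenase type 2, converts cortisol to inactive cortisone and protects the mineralocorticoid receptor in salt-transporting epithelia. HSD11B2 stood at 7.14, 7.74 and 6.90 on untreated replicates 1, 2 and 3 and at 10.43, 9.58 and 9.59 on AP1510 replicates 1, 2 and 3. All 3 AP1510 arrays lay well above the highest untreated array, with a log2 gap of 1.84 between the nearest arrays of the groups. It rose 6.07-fold (log2 change 2.60 ± 0.21, SE from the fit, n = 3 per group, adjusted p = 3.6e-05), and the log2 change was 2.32 without AP1510 replicate 1 (adjusted p = 3.6e-05). With TGF-alpha HSD11B2 was 3.28-fold lower than with AP1510 (adjusted p = 1.7e-05), while heregulin and AP1510 were not called apart (log2 difference -0.47 ± 0.21, adjusted p = 0.23).

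**Figure D2:**
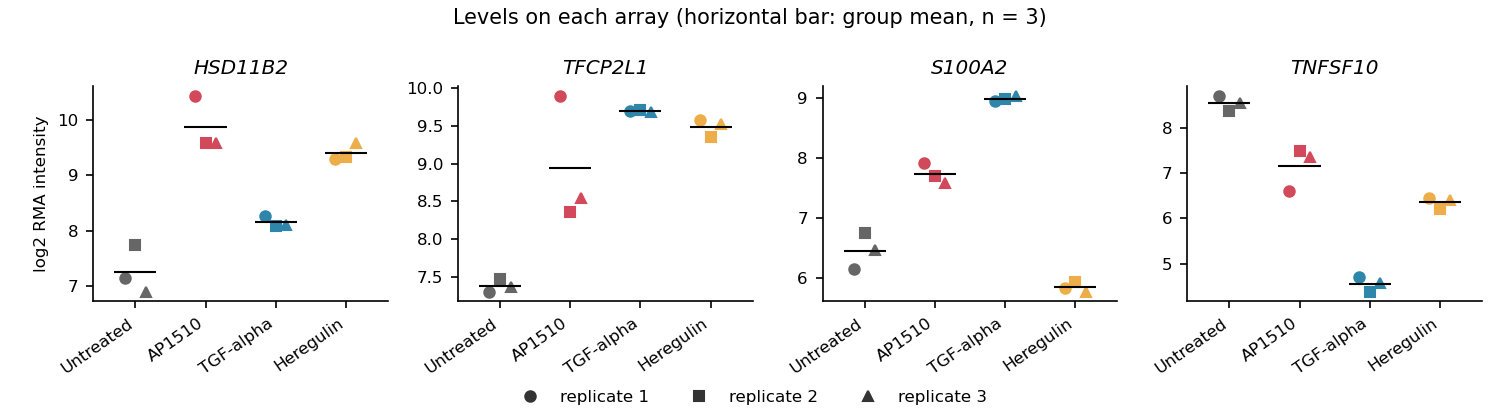
Levels of HSD11B2, TFCP2L1, S100A2 and TNFSF10 on each of the 12 arrays. The vertical axis is the log2 RMA intensity, with its own range in each panel, the 3 symbols of a group are its replicates and horizontal bars are group means; the AP1510 arrays of all 4 genes lie outside the range of the untreated arrays.

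Other genes of corticosteroid response and sodium transport moved less. Of 15 measured genes on that list, 2 rose and 1 fell, beside 0.771% and 0.7% of all genes tested, and 12 did not pass. The list's median log2 change was 0.143 beside -0.015 over all genes tested. SCNN1B, the beta subunit of the epithelial sodium channel, stood at 8.45, 8.69 and 8.45 on the untreated and 9.96, 9.49 and 9.32 on the AP1510 arrays, with no overlap, and rose 2.09-fold (adjusted p = 7.7e-04). SCNN1G, the gamma subunit, stood at 8.28, 7.14 and 7.08 with AP1510 against 6.998, 6.99 and 6.84 untreated, so that replicate 1 alone lay more than 1 log2 unit above untreated cells, and it did not pass (adjusted p = 0.31). SCNN1A, the alpha subunit, overlapped between groups at 10.49, 10.15 and 10.23 with AP1510 against 10.19, 10.16 and 10.10 untreated (adjusted p = 0.65). Replicate 1 was likewise the highest dish for the glucocorticoid-induced genes TSC22D3, at 8.37, 7.61 and 7.69 with AP1510 against 7.46, 7.40 and 7.52 untreated, and ZBTB16, at 8.21, 7.10 and 6.62 with AP1510 against 6.64, 6.36 and 6.66 untreated, and neither passed (adjusted p = 0.27 and 0.22). SGK1, a kinase gene induced by both corticosteroid receptors, overlapped at 6.69, 6.44 and 6.45 with AP1510 against 6.54, 6.44 and 6.58 untreated (adjusted p = 0.99). The receptor genes NR3C1 and NR3C2 had log2 changes of -0.04 ± 0.10 and 0.01 ± 0.11. MT1X, a metallothionein gene, fell 1.48-fold (adjusted p = 0.01), a call lost without untreated replicate 1 or 2 (highest adjusted p = 0.056).

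TFCP2L1, a transcription factor gene of the grainyhead-like family, stood at 7.30, 7.46 and 7.36 on untreated and 9.90, 8.36 and 8.54 on AP1510 replicates 1, 2 and 3. Replicate 1 lay more than 1 log2 unit above the other treated dishes, and these too were clear of untreated cells. TFCP2L1 rose 2.95-fold (log2 change 1.56 ± 0.26, adjusted p = 0.0061), and its log2 change was 1.08 without replicate 1 (adjusted p = 2.8e-04). MUC21, a transmembrane mucin gene, had the same shape, at 8.37, 7.56 and 7.49 with AP1510 against 6.28, 6.75 and 6.56 untreated, and rose 2.43-fold (adjusted p = 0.0024). It was the 1 of 16 measured mucin and luminal secretory genes that passed, beside 1.47% of all genes tested. The count was 2 without heregulin replicate 2 or 3, and the list's median log2 change was -0.012. With heregulin MUC21 was a further 2.64-fold higher than with AP1510 (adjusted p = 1.5e-04).

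S100A2 and CTSV rose by similar amounts on every dish. S100A2 encodes a calcium-binding protein of basal epithelial cells and stood at 6.14, 6.75 and 6.46 on untreated and 7.91, 7.69 and 7.58 on AP1510 arrays, a rise of 2.42-fold (log2 change 1.27 ± 0.13, adjusted p = 1.4e-04). It was 2.39-fold higher with TGF-alpha than with AP1510 (adjusted p = 2.6e-06) and 3.69-fold lower with heregulin than with AP1510 (adjusted p = 1.1e-07). S100A8 and S100A9, which fell, were counted with the inflammatory genes. None of the other 12 S100 genes on the list passed, beside 1.47% of all genes tested, so that count is near the background. Among them S100A10 had a log2 change of 0.20 ± 0.08 (adjusted p = 0.31). CTSV, a lysosomal cysteine protease gene, stood at 6.71, 6.32 and 6.56 untreated and 7.91, 7.53 and 7.74 with AP1510 and rose 2.29-fold (adjusted p = 2.0e-04), and it was 1.94-fold lower with heregulin than with AP1510 (adjusted p = 1.7e-04).

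Some large rises were uneven. LOX, whose product cross-links collagen, stood at 9.65, 8.82 and 8.40 on AP1510 replicates 1, 2 and 3 against 7.77, 7.92 and 7.83 untreated, and rose 2.17-fold (adjusted p = 0.011), with the call lost without untreated replicate 1 (adjusted p = 0.058). PDE1C, a cyclic nucleotide phosphodiesterase gene, stood at 7.05, 6.12 and 6.21 with AP1510 against 5.62, 5.77 and 5.46 untreated, and its rise of 1.79-fold (adjusted p = 0.04) lost the call in 7 of 12 refits. ALOX15B, a lipoxygenase gene, rose 1.85-fold, from 6.85, 7.02 and 6.57 to 8.03, 7.62 and 7.45, and kept the call in every refit (adjusted p = 0.004). The linker histone gene H1-1 stood at 6.26, 6.34 and 6.17 untreated and 7.24, 7.07 and 7.18 with AP1510, so the dishes were close to each other, and rose 1.87-fold (adjusted p = 1.7e-04). AHNAK2 rose 1.77-fold, SH3D21 1.8-fold and GDPD3 1.74-fold, each without overlap between groups and in every refit.

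Among the 17 lists, that of mitosis genes had the most members that rose. Of 31 measured, 22 rose, 0 fell and 9 did not pass, beside 0.771% of all genes tested that rose, and the median log2 change was 0.608 beside -0.015 over all genes. On 30 of the 31 the AP1510 arrays did not overlap the untreated arrays, beside 7.36% of all genes, and the list median was 0.809, 0.471 and 0.582 on replicates 1, 2 and 3. All 31 members were above their untreated mean on each of the 3 dishes. MKI67, which encodes the proliferation marker Ki-67, stood at 8.21, 8.21 and 8.18 on untreated and 9.07, 8.86 and 9.11 on AP1510 arrays and rose 1.76-fold (log2 change 0.81 ± 0.10, adjusted p = 4.8e-04). ANLN, the cytokinesis scaffold anillin, stood at 8.79, 8.57 and 8.76 untreated and 9.71, 9.37 and 9.45 with AP1510 and rose 1.75-fold. Both showed the AP1510 dishes together, well above untreated cells. The kinesin gene KIF14 rose 1.68-fold (adjusted p = 0.0052), the spindle assembly factor gene TPX2 1.65-fold (adjusted p = 0.0017), CCNA2, cyclin A2, 1.61-fold (adjusted p = 0.0051) and FOXM1, a transcription factor of G2 and M phase genes, 1.59-fold (adjusted p = 0.004). PLK1, a mitotic kinase gene, rose 1.46-fold (adjusted p = 0.01) and lost the call without untreated replicate 1 or AP1510 replicate 1 (highest adjusted p = 0.063).

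The number of mitosis genes that passed was 9 without AP1510 replicate 1, 12 without untreated replicate 2 and 14 without untreated replicate 3. The 9 that passed in every refit were MKI67, ANLN, BUB1, CENPE, KIF14, KIF20A, TPX2, CCNA2 and FOXM1. Of them CENPE had means of 4.43 untreated and 5.19 with AP1510, below the array medians, where signal is faint. All 9 were higher again with TGF-alpha, by 1.4-fold for KIF20A, a cytokinesis kinesin gene, up to 2.1-fold for BUB1, a spindle checkpoint kinase gene (adjusted p = 0.0046 and 6.9e-06 for TGF-alpha against AP1510, beside 21.6% of all genes that differed in that contrast). With heregulin, FOXM1 was 1.32-fold lower than with AP1510 (adjusted p = 0.026), and the other 8 had lower means than with AP1510 but did not pass.

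The promoters of mitosis genes were read for 2 motifs that recur in genes of this phase, the cell cycle genes homology region, searched as TTTGAA, and the CCAAT box, searched as CCAAT, each on both strands. RefSeq windows of 300 bases on GRCh38.p14, 250 before and 50 after the start, matched 14239 of the tested genes and 25 of the mitosis genes. TTTGAA stood in 18 of the 25 (72.0%), against 11.9% of all tested genes and 1 of 30 replication genes (3.33%), and CCAAT in 19 (76.0%), against 36.3% of all and 18 of the 30 (60.0%). Among the 17 of the 25 that passed the test, 12 held TTTGAA and 13 held CCAAT, shares close to those of all 25. The windows of MKI67, KIF14 and PLK1 are shown because they hold both motifs, in capitals on either strand, in genes that rose. The second TTTGAA of MKI67 overlaps a CCAAT match by 1 base. They lie at chr10:128126374-128126673 on the minus strand for MKI67, chr1:200620702-200621001 on the minus strand for KIF14 and chr16:23678639-23678938 on the plus strand for PLK1.
MKI67: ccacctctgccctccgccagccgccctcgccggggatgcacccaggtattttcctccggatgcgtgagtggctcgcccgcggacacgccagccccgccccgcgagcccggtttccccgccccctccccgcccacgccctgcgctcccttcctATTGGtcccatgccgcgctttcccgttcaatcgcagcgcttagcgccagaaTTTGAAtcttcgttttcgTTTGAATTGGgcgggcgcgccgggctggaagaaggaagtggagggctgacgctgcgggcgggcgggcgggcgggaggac
KIF14: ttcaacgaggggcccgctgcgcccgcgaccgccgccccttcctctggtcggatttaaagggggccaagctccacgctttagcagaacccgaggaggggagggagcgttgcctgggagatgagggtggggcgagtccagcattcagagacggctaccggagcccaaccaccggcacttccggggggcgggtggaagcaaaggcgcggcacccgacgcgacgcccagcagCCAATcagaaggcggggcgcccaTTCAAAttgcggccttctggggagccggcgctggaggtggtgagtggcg
PLK1: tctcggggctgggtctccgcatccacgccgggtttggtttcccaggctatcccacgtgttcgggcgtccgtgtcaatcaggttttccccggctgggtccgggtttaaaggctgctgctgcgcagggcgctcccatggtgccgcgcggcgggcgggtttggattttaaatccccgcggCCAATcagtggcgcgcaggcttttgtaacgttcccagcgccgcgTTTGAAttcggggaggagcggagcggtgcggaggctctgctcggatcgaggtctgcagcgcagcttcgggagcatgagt
Whether these matches are bound in these cells was not measured.

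Few replication genes passed. Of 33 measured, 2 rose and 0 fell, beside 0.771% and 0.7% of all genes tested, and 31 did not pass. The median log2 change was 0.348, and 26 had all AP1510 arrays above the untreated arrays, beside 7.36% of all genes. The 2 that rose load the replicative helicase: ORC1, at 5.82, 5.37 and 5.59 with AP1510 against 5.07, 5.00 and 5.04 untreated, rose 1.47-fold (adjusted p = 0.024), and ORC6, at 5.71, 5.56 and 5.44 with AP1510 against 4.89, 5.14 and 5.15 untreated, rose 1.43-fold (adjusted p = 0.02). The count was 0 when replicate 1 of the untreated or of the AP1510 group was left out, 1 when AP1510 replicate 2 or untreated replicate 2 or 3 was, and 4 when heregulin replicate 1 was. Of 18 measured sterol synthesis genes 4 rose and 0 fell, beside 0.771% and 0.7% of all genes tested, with a median of 0.183. ACAT2, which makes acetoacetyl-CoA, rose 1.56-fold, HMGCS1, HMG-CoA synthase, 1.37-fold, SQLE, squalene epoxidase, 1.35-fold, and FDPS, farnesyl diphosphate synthase, 1.29-fold. FDPS was even across the AP1510 dishes, at 8.76, 8.78 and 8.76 against 8.31, 8.44 and 8.45 untreated. Its call was nevertheless lost in 9 of the 12 refits (highest adjusted p = 0.18), and those of ACAT2, HMGCS1 and SQLE in 1, 6 and 7. The sterol count was 0 without AP1510 replicate 1. It was 1 when TGF-alpha replicate 1, AP1510 replicate 3, or untreated replicate 1 or 2 was left out, and 2 when TGF-alpha replicate 2, AP1510 replicate 2 or untreated replicate 3 was.

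**Figure D3:**
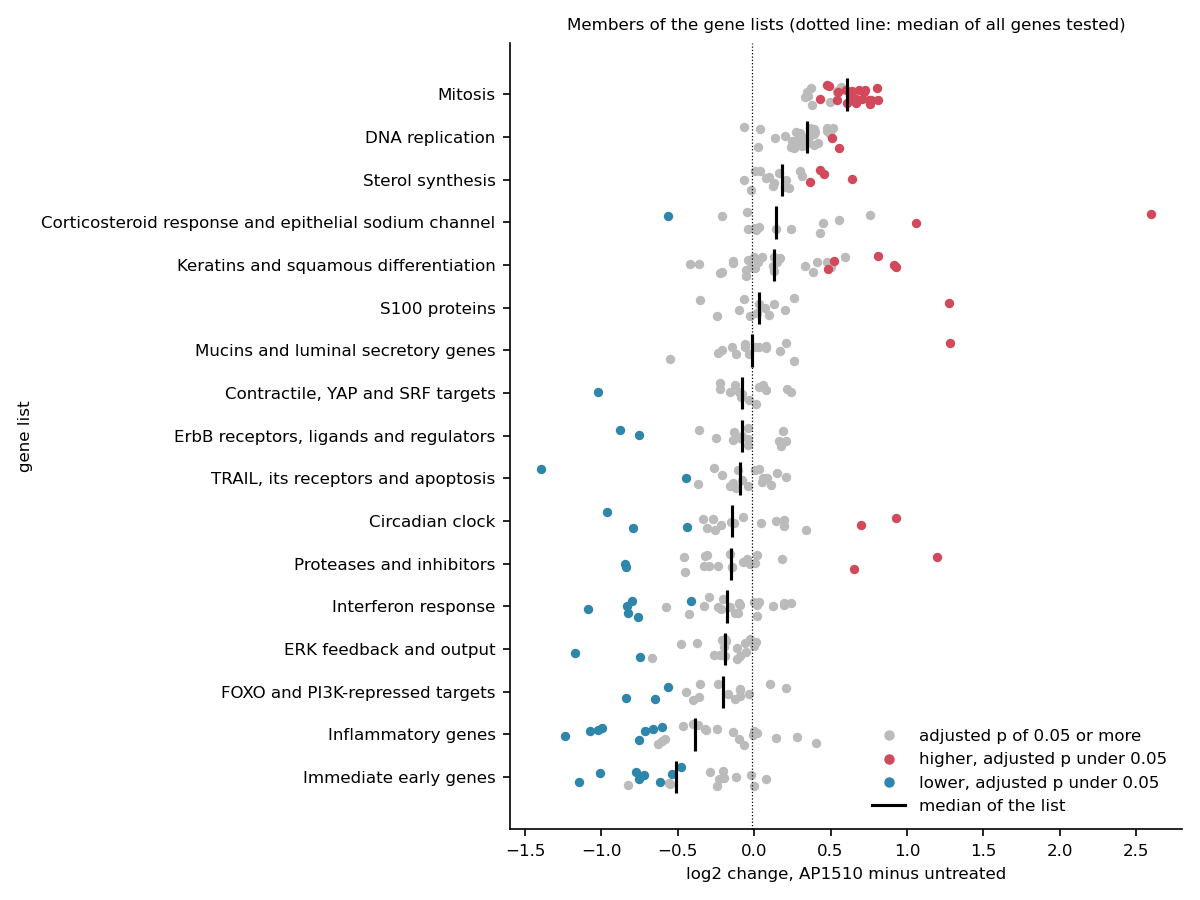
Log2 change of every measured member of the 17 gene lists, AP1510 minus untreated. Each point is a gene, coloured where it passed an adjusted p under 0.05, black bars are list medians and the dotted line is the median of all genes tested (-0.015); mitosis genes have the highest median (0.608) and immediate early genes the lowest (-0.51).

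The keratin genes KRT16, KRT10, KRT5 and KRT14 and the kallikrein gene KLK6 rose. They are the 5 that passed of 31 measured keratin and squamous genes, beside 0.771% of all genes tested that rose. Of the 31, 0 fell and 26 did not pass. The median log2 change was 0.13, and the count that passed was 3 without untreated replicate 1 or 3. KRT16, a keratin of activated epithelium, stood at 8.74, 8.87 and 8.70 on untreated and 9.91, 9.51 and 9.67 on AP1510 arrays and rose 1.9-fold (adjusted p = 6.1e-04). KRT10, a suprabasal keratin, stood at 10.07, 9.89 and 9.98 untreated and 11.13, 10.76 and 10.79 with AP1510 and rose 1.89-fold (adjusted p = 4.3e-04). It was 2.03-fold lower with TGF-alpha and 3.05-fold higher with heregulin than with AP1510 (adjusted p = 3.5e-06 and 9.3e-08). The basal pair KRT5 and KRT14 rose 1.43-fold and 1.4-fold (adjusted p = 0.024 and 0.0061), and KRT5 lost the call without untreated replicate 1 or 3 or AP1510 replicate 1 (highest adjusted p = 0.13). Among the 5 that rose, replicate 1 was the lowest dish for KLK6, a secreted kallikrein protease gene, at 7.61, 8.26 and 8.35 with AP1510 against 7.10, 7.49 and 7.20 untreated. KLK6 rose 1.76-fold (adjusted p = 0.04), with the call lost in 7 of 12 refits. The cornified envelope genes IVL and SPRR1B had log2 changes of -0.42 ± 0.25 and 0.13 ± 0.11, with overlap.

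Among clock genes BMAL1 and CRY1 rose, and NR1D1, NR1D2 and DBP fell. In the circadian clock, BMAL1 and CLOCK activate genes of their own repressors, and the nuclear receptors NR1D1 and NR1D2 repress BMAL1 through elements that ROR activators also bind. BMAL1 stood at 6.11, 6.16 and 5.92 on untreated and 6.96, 7.10 and 6.90 on AP1510 arrays, a narrow spread in both groups, and rose 1.9-fold (log2 change 0.93 ± 0.09, adjusted p = 1.4e-04). Its log2 change was 0.94 without AP1510 replicate 1, so replicate 1 did not stand apart for this gene. NR1D2 stood at 8.60, 8.18 and 8.43 untreated and 7.24, 7.32 and 7.75 with AP1510 and fell 1.95-fold (adjusted p = 0.0018), and NR1D1 stood at 7.72, 7.49 and 7.61 untreated and 6.47, 6.84 and 7.14 with AP1510 and fell 1.73-fold (adjusted p = 0.017). CRY1, a repressor that peaks late in the cycle, rose 1.63-fold (adjusted p = 0.0085), from 5.32, 5.51 and 5.78 to 6.40, 6.15 and 6.16. DBP, an output factor gene, fell 1.36-fold (adjusted p = 0.043).

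Of 18 measured clock genes 2 rose and 3 fell, beside 0.771% and 0.7% of all genes tested. The other 13 did not pass, and the list's median log2 change was -0.142. Among those that did not pass, PER2, at 7.84, 7.74 and 7.92 with AP1510 against 8.11, 8.06 and 8.13 untreated, PER3 and CRY2 had all AP1510 arrays below the untreated arrays (log2 changes -0.27 ± 0.08, -0.33 ± 0.11 and -0.25 ± 0.09), while CLOCK overlapped. Over the 18, all AP1510 arrays lay below the untreated arrays for 6 and above them for 4, beside 9.93% and 7.36% of all genes. The number that passed was 2 without untreated replicate 1 and 3 without untreated replicate 3 or AP1510 replicate 1. NR1D1 lost its call without untreated replicate 1 or 3 or AP1510 replicate 1 (highest adjusted p = 0.095), CRY1 without untreated replicate 1 or AP1510 replicate 1 (highest adjusted p = 0.058), and DBP in 10 of the 12 refits. BMAL1 and NR1D2 passed in all 12. With TGF-alpha BMAL1 was not called apart from AP1510 (log2 difference 0.12 ± 0.09, adjusted p = 0.47), and with heregulin it was 1.3-fold lower than with AP1510 (adjusted p = 0.021). The sources used here do not state the hour of day of any harvest, and a difference in circadian phase between dishes cannot be told apart from an effect of AP1510.

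**Figure D4:**
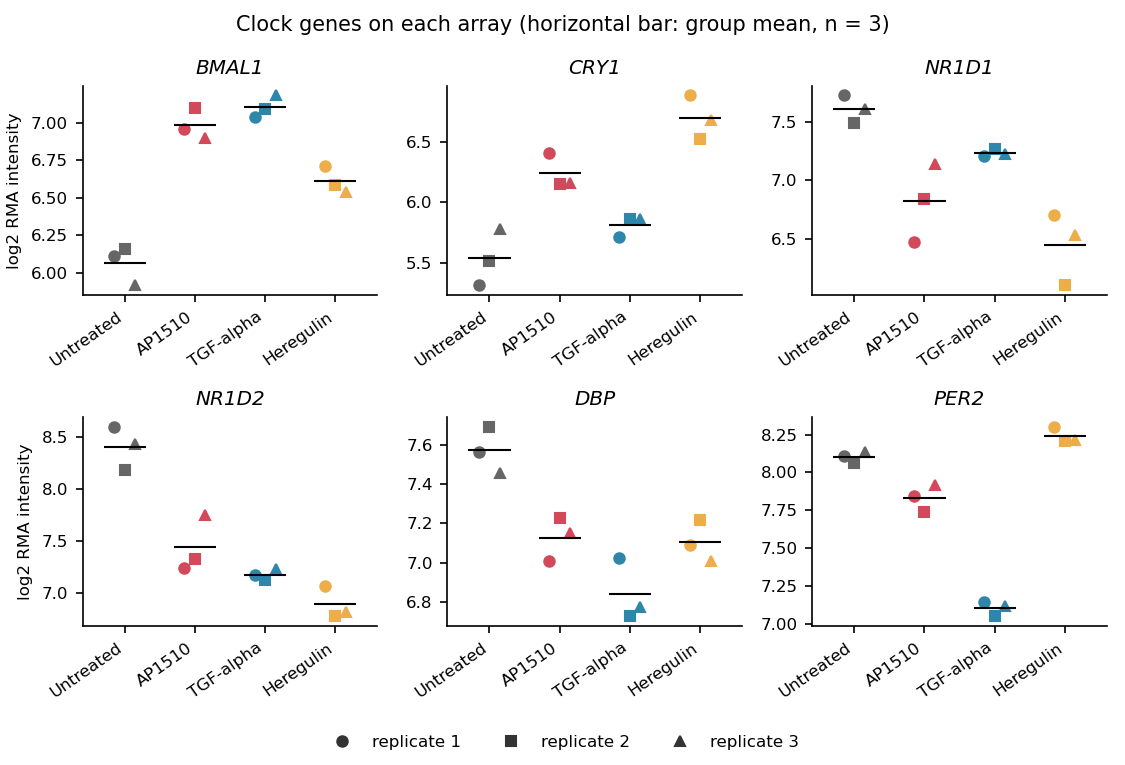
Levels of 6 clock genes on each of the 12 arrays. The vertical axis is the log2 RMA intensity, with its own range in each panel, the 3 symbols of a group are its replicates and horizontal bars are group means; with AP1510, BMAL1 and CRY1 lie above untreated arrays and NR1D1, NR1D2, DBP and PER2 below, and PER2 did not pass the test.

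The BMAL1 window of 300 bases holds an element of the kind shared by NR1D1, NR1D2 and ROR factors, searched as AAN directly followed by TAGGTCA on both strands and shown in capitals. Of the 14239 windows of tested genes, 13 held it (0.0913%), and BMAL1 was the 1 of 18 clock genes with it. The window lies at chr11:13277540-13277839 on the plus strand of GRCh38.p14, per RefSeq.
BMAL1: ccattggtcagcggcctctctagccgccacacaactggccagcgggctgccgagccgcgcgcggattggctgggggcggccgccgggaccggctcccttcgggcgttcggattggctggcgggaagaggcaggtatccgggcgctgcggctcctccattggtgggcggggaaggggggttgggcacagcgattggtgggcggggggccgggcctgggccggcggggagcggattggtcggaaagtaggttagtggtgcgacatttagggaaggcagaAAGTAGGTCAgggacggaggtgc
A match describes the sequence and says nothing of binding in these cells.

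TNFSF10 had the largest fall. It encodes TRAIL, a ligand that triggers apoptosis through death receptors. TNFSF10 stood at 8.72, 8.37 and 8.56 on untreated replicates 1, 2 and 3 and at 6.60, 7.50 and 7.36 on AP1510 replicates 1, 2 and 3. Replicate 1 was the lowest, and the other dishes were also below every untreated array. The fall was 2.63-fold (log2 change -1.40 ± 0.18, adjusted p = 7.7e-04), or a log2 change of -1.12 without replicate 1. It was lower again with TGF-alpha, by 6.05-fold (adjusted p = 4.6e-08), and with heregulin, by 1.74-fold (adjusted p = 0.011). The death receptor genes TNFRSF10A and TNFRSF10B did not pass, with log2 changes of -0.16 ± 0.09 and -0.14 ± 0.09. Of 20 measured TRAIL signalling and apoptosis genes 2 fell and 0 rose, beside 0.7% and 0.771% of all genes, and 18 did not pass. The other that fell was PMAIP1, the BH3-only protein NOXA, at 5.63, 5.73 and 5.75 with AP1510 against 6.13, 6.12 and 6.18 untreated, which fell 1.36-fold (adjusted p = 0.037). Its call ended without any 1 of the AP1510 or untreated arrays or TGF-alpha replicate 1, which left TNFSF10 alone.

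Several other falls were even across the dishes. CLCA2, a regulator of a calcium-activated chloride current in basal epithelium, stood at 8.43, 8.16 and 8.44 untreated and 6.93, 7.03 and 7.16 with AP1510 and fell 2.47-fold (adjusted p = 1.2e-04). MYLK, myosin light chain kinase, stood at 6.42, 6.57 and 6.23 untreated and 5.31, 5.39 and 5.44 with AP1510, with little spread between the AP1510 dishes, and fell 2.03-fold (adjusted p = 8.0e-05). MYLK was the 1 of 15 measured genes on the list of contractile, YAP and SRF targets that passed, beside 1.47% of all genes tested. CCN1, also a YAP and SRF target, was counted with the immediate early genes and is given there. GDF15, a stress-induced cytokine gene of the TGF-beta superfamily, stood at 7.92, 8.07 and 7.85 untreated and 7.14, 6.96 and 7.005 with AP1510, with replicate 1 the highest of the 3 AP1510 dishes, and fell 1.87-fold (adjusted p = 5.3e-04). It was 1.94-fold higher with TGF-alpha than with AP1510 (adjusted p = 8.1e-06).

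Falls that were larger on replicate 1 included HEG1, a transmembrane receptor gene, at 7.52, 8.23 and 8.33 with AP1510 against 9.03, 9.05 and 9.02 untreated (2.01-fold lower, adjusted p = 0.0065). TBL1X, a subunit gene of a nuclear corepressor complex, stood at 5.24, 6.19 and 6.23 with AP1510 against 6.71, 6.96 and 7.17 untreated (2.08-fold lower, adjusted p = 0.011), and lost its call without untreated replicate 3 (adjusted p = 0.068). The matrix gene TNC, tenascin C, stood at 5.86, 6.53 and 7.11 with AP1510 against 7.49, 7.40 and 7.59 untreated. Its fall of 1.99-fold (adjusted p = 0.024) lost the call without AP1510 replicate 1 or 2 or any 1 of the untreated arrays (highest adjusted p = 0.1).

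Immediate early genes, which ERK and stress pathways induce within minutes, moved downwards where they passed, 48 hours after AP1510. Of 20 measured, 8 fell, 0 rose and 12 did not pass, beside 0.7% of all genes tested that fell, with a median log2 change of -0.51. On 12 of the 20 the groups did not overlap, beside 9.93% of all genes, and the list median was -0.758, -0.394 and -0.265 on replicates 1, 2 and 3. EGR3, a zinc finger factor gene, stood at 8.22, 8.49 and 8.37 on untreated and 6.63, 7.47 and 7.54 on AP1510 arrays and fell 2.22-fold (adjusted p = 0.0051). Replicate 1 lay lowest, and replicates 2 and 3 were close together. FOS, an AP-1 subunit gene, stood at 11.18, 11.25 and 11.17 untreated and 10.36, 10.41 and 10.58 with AP1510 and fell 1.69-fold (adjusted p = 0.0011), and FOSB, of the same family, stood at 10.61, 10.39 and 10.33 untreated and 9.55, 9.67 and 9.94 with AP1510 and fell 1.65-fold (adjusted p = 0.0041). These 3 passed in every refit.

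CCN1, a matricellular YAP and SRF target, fell 2.01-fold, from 8.87, 9.09 and 8.86 to 7.36, 8.03 and 8.39 (adjusted p = 0.01), and lost its call without untreated replicate 2 (adjusted p = 0.054). JUN fell 1.71-fold (adjusted p = 0.015) and lost its call without untreated replicate 1 or 2 or AP1510 replicate 1 (highest adjusted p = 0.083). JUNB fell 1.39-fold, IER2 1.45-fold and ZFP36, which degrades AU-rich mRNAs, 1.53-fold (adjusted p = 0.038, 0.011 and 0.032), and they lost the call in 8, 2 and 5 of 12 refits. EGR1, at 11.64, 11.98 and 12.12 with AP1510 against 12.16, 12.24 and 12.07 untreated, overlapped and did not pass (adjusted p = 0.43), and NR4A2 and NR4A3 had log2 changes of -0.02 ± 0.15 and -0.00 ± 0.11. The number of early genes that fell was 4 without untreated replicate 1, untreated replicate 2 or AP1510 replicate 1. With TGF-alpha FOSB was 4.67-fold lower and EGR3 2.55-fold lower than with AP1510 (adjusted p = 2.2e-09 and 5.0e-05), while FOS was not called apart (log2 difference -0.21 ± 0.10, adjusted p = 0.18).

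Feedback genes of ErbB and ERK signalling mostly did not pass. Of 20 measured ERK feedback and output genes 2 fell and 0 rose, beside 0.7% and 0.771% of all genes tested. The other 18 did not pass, and the list's median log2 change was -0.192, with 18 changes negative and 2 positive. All AP1510 arrays lay below the untreated arrays for 6 and above them for 0, beside 9.93% and 7.36% of all genes. LIF, which signals through the gp130 receptor, stood at 5.93, 6.22 and 6.13 untreated and 4.45, 4.97 and 5.35 with AP1510 and fell 2.25-fold (adjusted p = 0.0051), with a different level on each dish and none within the untreated range. DUSP5, a nuclear ERK phosphatase gene, stood at 7.82, 8.58 and 8.76 with AP1510 against 9.28, 9.11 and 9.03 untreated, and its fall of 1.68-fold (adjusted p = 0.046) lost the call in 9 of the 12 refits. The ERK count was 1 without untreated replicate 1 or 3, AP1510 replicate 1 or 2, heregulin replicate 3 or any 1 of the TGF-alpha arrays. The feedback genes DUSP6, SPRY4 and SPRED2 had log2 changes of -0.11 ± 0.11, 0.01 ± 0.11 and -0.19 ± 0.13, and the ETS factor genes ETV4 and ETV5 -0.20 ± 0.12 and -0.03 ± 0.11.

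Of 15 measured ErbB receptor, ligand and regulator genes 2 fell and 0 rose, beside 0.7% and 0.771% of all genes tested. The other 13 did not pass. The list's median log2 change was -0.082, with 11 changes negative and 4 positive. For 5 genes all AP1510 arrays lay below the untreated arrays and for 0 above, beside 9.93% and 7.36% of all genes. LRIG1, a transmembrane inhibitor of ErbB receptors, stood at 7.64, 7.57 and 7.56 untreated and 6.49, 6.91 and 7.10 with AP1510 and fell 1.69-fold (adjusted p = 0.01), a call lost without untreated replicate 1 (adjusted p = 0.051). HBEGF, an EGFR ligand gene, was spread over the AP1510 dishes, at 6.49, 7.19 and 7.60 with AP1510 against 7.99, 7.95 and 7.97 untreated. Its fall of 1.84-fold (adjusted p = 0.041) lost the call in 9 of the 12 refits. ERRFI1, an intracellular ErbB inhibitor gene, lay at 9.70, 9.42 and 9.66 with AP1510 against 9.98, 9.93 and 9.95 untreated, below untreated cells on every dish, and did not pass (adjusted p = 0.052). The count was 0 without untreated replicate 1 and 1 without untreated replicate 2 or 3, AP1510 replicate 1 or 2, heregulin replicate 3 or any 1 of the TGF-alpha arrays.

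The inflammatory genes that passed all fell. Of 26 measured, 8 fell and 0 rose, beside 0.7% and 0.771% of all genes tested, and 18 did not pass. The median log2 change was -0.385, and 7 to 9 fell with any 1 array left out. CD14, a co-receptor for bacterial lipopolysaccharide, stood at 9.79, 9.57 and 9.46 on untreated and 8.07, 8.54 and 8.48 on AP1510 arrays and fell 2.36-fold (log2 change -1.24 ± 0.13, adjusted p = 1.7e-04). S100A8 and S100A9, which form calprotectin, fell 2.11-fold and 1.99-fold (adjusted p = 0.0024 and 0.0027), from 10.43, 10.43 and 10.57 to 8.97, 9.63 and 9.60 and from 8.99, 9.02 and 8.99 to 7.56, 8.24 and 8.22. In both, replicate 1 was lowest and replicates 2 and 3 were nearly equal. IL6 stood at 5.55, 5.84 and 5.33 untreated and 4.23, 4.67 and 4.74 with AP1510 and fell 2.03-fold (adjusted p = 0.0011). SOD2, a mitochondrial superoxide dismutase induced by NF-kB, was even across dishes, at 9.61, 9.42 and 9.54 untreated against 8.83, 8.72 and 8.88 with AP1510, and fell 1.64-fold (adjusted p = 7.0e-04). CXCL1, a neutrophil chemokine gene, fell 1.69-fold and CFB, complement factor B, 1.58-fold (adjusted p = 0.0057 and 0.0065), and TNFAIP3, an inhibitor of NF-kB, fell 1.52-fold (adjusted p = 0.049) with the call lost in 9 of 12 refits. The other 7 kept theirs in all 12.

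With heregulin most of these genes stood higher than with AP1510: CFB by 24.2-fold, S100A9 by 8.04-fold, S100A8 by 6-fold, SOD2 by 5.19-fold and CXCL1 by 3.27-fold (adjusted p = 4.8e-13, 2.0e-09, 3.1e-08, 7.5e-11 and 2.4e-07, beside 7.23% of all genes that differed between heregulin and AP1510). IL6 was not called apart (adjusted p = 0.12). With TGF-alpha CFB was 2.02-fold lower, S100A8 2.79-fold lower and CD14 2.2-fold lower than with AP1510 (adjusted p = 5.6e-06, 3.5e-06 and 7.1e-06), while S100A9 was not called apart (log2 difference -0.15 ± 0.15, adjusted p = 0.58).

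Interferon-response genes had 6 fallen and 0 risen of 26 measured, beside 0.7% and 0.771% of all genes tested, and 20 not passed. The median log2 change was -0.181, and 3 fell without untreated replicate 1. IFITM1, which restricts viral entry, stood at 6.58, 6.73 and 6.39 untreated and 5.34, 5.55 and 5.55 with AP1510 and fell 2.12-fold (adjusted p = 3.3e-04), and IFITM3, of the same family, fell 1.7-fold (adjusted p = 0.0087). CXCL10, a T-cell chemokine gene, fell 1.74-fold (adjusted p = 0.0052) at levels of 3.58, 3.87 and 4.01 with AP1510 against 4.39, 4.79 and 4.69 untreated, below the array medians, where signal is faint. IRF1, IFIT1 and GBP2 fell 1.78-fold, 1.33-fold and 1.77-fold (adjusted p = 0.031, 0.03 and 0.015) and lost the call in 5, 5 and 2 of 12 refits. The antiviral genes MX1, OAS1 and ISG15 had log2 changes of -0.12 ± 0.16, -0.09 ± 0.10 and -0.00 ± 0.12, and none of the 3 passed. With dim genes left out of the test, 3 interferon genes fell, and IFITM1, IFIT1 and CXCL10 were not tested because they were among those left out.

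FOXO and PI3K-repressed targets had 3 fallen and 0 risen of 16 measured, beside 0.7% and 0.771% of all genes tested, and 13 not passed. The list medians were -0.227, -0.257 and -0.211 on AP1510 replicates 1, 2 and 3, close to each other. PDK4, which holds back pyruvate oxidation, stood at 9.80, 9.84 and 10.14 untreated and 9.09, 9.003 and 9.16 with AP1510 and fell 1.79-fold (adjusted p = 4.3e-04). TXNIP, a brake on glucose uptake, stood at 11.85, 11.91 and 12.06 untreated and 11.09, 11.28 and 11.51 with AP1510 and fell 1.57-fold (adjusted p = 0.0058). PIK3IP1, an inhibitor of PI3K, fell 1.48-fold (adjusted p = 0.02), a call lost in 4 of the 12 refits. BCL2L11, which encodes the pro-apoptotic BIM, and FBXO32, a ubiquitin ligase subunit gene, had log2 changes of -0.44 ± 0.12 and -0.35 ± 0.11, and ERBB3, a FOXO-induced receptor gene, -0.09 ± 0.10, none of which passed.

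The proteases and inhibitors that passed moved in both directions. Of 20 measured 2 rose and 2 fell, beside 0.771% and 0.7% of all genes tested, and 16 did not pass. The median log2 change was -0.153, with 15 changes negative and 5 positive. All AP1510 arrays lay below the untreated arrays for 11 and above them for 3, beside 9.93% and 7.36% of all genes. The rises were of CTSV, given above, and of MMP7, matrilysin, which stood at 8.33, 8.07 and 8.26 untreated and 8.85, 8.87 and 8.89 with AP1510, nearly the same on the 3 AP1510 dishes, and rose 1.57-fold (adjusted p = 0.017). MMP7 was 6.57-fold lower with TGF-alpha than with AP1510 (adjusted p = 1.1e-09). TIMP3, a metalloproteinase inhibitor gene, stood at 9.99, 9.91 and 9.88 untreated and 8.76, 9.12 and 9.37 with AP1510 and fell 1.8-fold (adjusted p = 0.0022), a call that its lowest probe set did not give. PLAU, urokinase, stood at 6.51, 7.32 and 7.57 with AP1510 against 8.09, 7.91 and 7.93 untreated and fell 1.79-fold (adjusted p = 0.037), with the call lost in 8 of the 12 refits, and MMP7 lost its call in 4. The count of 4 dropped to 2 when AP1510 replicate 1 or 2, or untreated replicate 2 or 3, was left out.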

How the data were processed

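Transcripts were measured on 12 Affymetrix arrays, 3 per group. The authors deposited RMA values on a log2 scale, per the submitters' processing notes, which name no version. RMA equalizes the distributions of the arrays, so a change shared by most genes is removed. No further scaling was applied. Of 33297 probe sets, 19460 named 1 gene, 1754 several and 12083 none in the platform annotation. Symbols were updated through Entrez IDs to RefSeq (19429 matched), and the probe set with the highest mean stood for its gene, a choice that mattered for 769 genes. Probe sets naming no gene or more than 1 were left out.

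All 12 arrays entered 1 model with a mean per group in limma 3.58.1 (R 4.3.3), with 8 residual and 7.55 prior degrees of freedom and a median moderated SD of 0.128. Tests were two-sided, Benjamini-Hochberg adjusted over 18417 genes, with a threshold of 0.05. For arrays, their number limits the precision. Replicates are dishes numbered in accession order. A p-value sets the difference between groups only against the spread between dishes, pooled over all groups, which may be technical. The script was tested on simulated data with known changes.

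The comparison and the 17 gene lists (374 of 402 listed genes measured, marker lists included) were chosen with earlier results of these data known. Named genes are the 15 largest rises and falls, the 10 widest gaps in each direction, the list members and the 4 genes given with the comparison. Alternatives were the 6 arrays alone, a trended robust prior, array weights, renewed quantile normalization, median centring, dim genes left out, the lowest probe set per gene and each array left out.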

Additional observations from a re-analysis of the deposited data

How the results depend on the processing

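No paired analysis was possible because the labels give groups no shared replicate numbers. The 271 genes that passed became 95 to 327 with any 1 array left out, those higher 49 to 178 and those lower 46 to 160; AP1510 replicate 1 gave the lowest value of each. The genes lower numbered 82 with the 6 arrays alone and 204 with a trended robust prior. Left-out arrays gave 9 to 23 mitosis and 4 to 10 immediate early genes. Of 92 named genes that passed, 46 kept their call in every one of the 19 alternatives that tested them, 46 lost it in at least 1 and 0 reversed. Among those that kept it, CENPE, CXCL10, IFITM1, IL6, LIF and MYLK were tested in 18, since they were left out as dim in the other. The median change of all genes ranged from -0.0187 to -0.0026. With the 6 arrays alone, 3 interferon and 2 sterol genes passed. With a trended robust prior, 5 replication, 5 FOXO and 3 mucin genes did. With dim genes left out, 0 contractile genes did, since MYLK lay among them, and PMAIP1 lost its call under renewed quantile normalization and median centring. Values near the array medians or below, such as those of LIF, IL6 and CXCL10, have little signal over background. The causes of these shifts were not tested.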

Other observations

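Histone genes were picked by symbol to take in the replication-dependent ones, which are transcribed in S phase, and were counted after their values were seen. Of 58 measured, 5 rose and 0 fell, beside 0.771% and 0.7% of all genes tested. All 3 AP1510 arrays lay above the untreated arrays for 23 and below them for 6, beside 7.36% and 9.93% of all genes, so the count below is near the background. The median log2 change was 0.172 beside -0.015 over all genes. H2AC14 stood at 2.83, 2.89 and 3.24 on untreated and 3.80, 3.71 and 3.87 on AP1510 arrays (1.75-fold higher, adjusted p = 0.004), at a level far below the array medians. H1-5, a linker histone gene, stood at 8.41, 8.56 and 8.38 untreated and 9.45, 9.05 and 8.81 with AP1510 (1.57-fold, adjusted p = 0.03), and H4C3 at 9.04, 8.99 and 8.83 untreated and 9.61, 9.39 and 9.55 with AP1510 (1.48-fold, adjusted p = 0.0083). These genes are near copies of each other, so a probe set may read more than 1 of them. H4C14 and H4C15, both counted among the 23, had the same value on every array and are not separate measurements.

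Among the 74 genes that passed with each array left out in turn, some belong to no list above and were picked after their values were seen. CRYAB, a small heat shock protein gene, rose 1.68-fold, from 4.81, 4.87 and 4.71 to 5.51, 5.63 and 5.51 (adjusted p = 0.0065), at levels near the array medians or below. CA2, carbonic anhydrase II, rose 1.65-fold, from 8.55, 8.41 and 8.46 to 8.91, 9.27 and 9.41 (adjusted p = 0.01). STMN1, a microtubule-destabilising protein gene, rose 1.53-fold (adjusted p = 0.0037). PPARGC1A, a coactivator of mitochondrial genes, fell 1.67-fold, from 8.04, 7.92 and 8.03 to 7.28, 7.08 and 7.41 (adjusted p = 0.004). SLC1A3, a glutamate transporter gene, fell 1.73-fold (adjusted p = 0.0052), F2R, the thrombin receptor gene, 1.82-fold (adjusted p = 0.0043), and MFSD2A, a lysophospholipid transporter gene, 1.77-fold (adjusted p = 0.0019).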
